A study of Danio rerio with 18 samples.

Results

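Hox genes encode homeodomain transcription factors, and their transcripts were followed here in the zebrafish pronephric duct with and without a block on actl6a translation. The members were all accessions in the deposited count tables whose RefSeq identifier belongs to a zebrafish symbol of the hoxa, hoxb, hoxc or hoxd series. They came to 55 accessions of 46 genes, out of 32820 accessions and 18356 named genes in the tables. By cluster these were 7 genes of hoxaa, 5 of hoxab, 11 of hoxba, 4 of hoxbb, 9 of hoxca, 3 of hoxcb and 7 of hoxda. The protein-coding symbols hoxc3a, hoxc6b and hoxc10a were matched to no accession and were not analysed here. Most genes had a single accession, but hoxb3a had 8 and hoxa11a and hoxd12a had 2 each.

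Hox genes lie in clusters, and their order along a cluster follows the order of their expression along the body. Genes of low paralog number start in the hindbrain, and those of the highest numbers mark the tail, the cloacal region and the distal fins. Zebrafish carry extra copies of most clusters from a genome duplication in the teleost lineage, so that many genes have an a and a b copy. Polycomb complexes keep hox clusters silent, and trithorax-group proteins, to which the SWI/SNF chromatin remodellers belong, act against that silencing. In the mouse, the Hox11 paralogs are needed together for the permanent kidney to form.

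The libraries were of duct fragments taken at 30 hours after fertilisation from embryos of a line with GFP under the control of the Na,K-ATPase alpha1A4 gene, which marks the pronephros by fluorescence. All embryos carried this transgene and are given as wild type. The 8 actl6a libraries came from embryos that received, at the 1-cell stage, a translation-blocking morpholino against actl6a, which encodes an actin-like subunit of SWI/SNF complexes. The 10 control libraries came from embryos that received a standard control morpholino at the same stage. A morpholino acts in the whole embryo and not in the duct alone. Fragments were picked by eye for GFP after collagenase treatment of 15 embryos, and about 10 fragments were collected. It is not clear whether fragments of a library come from 1 duct or several, nor from which stretch of the duct a fragment came. The labels do not say that libraries of a group came from separate injections, so p-values measure the spread between libraries, which may be technical. Each group has its own count table and its own run of barcodes, so a batch of preparation cannot be told apart from the morpholino.

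Total counts ran from 1731521 to 3393310 in actl6a libraries and from 1564673 to 3301873 in control libraries. Levels are given as CPM, counts per 1000000 on totals scaled by the TMM method, and a mean stands with its SD over the 8 actl6a or the 10 control libraries. A gene was called where the quasi-likelihood test of edgeR, run over all accessions at once, gave a Benjamini-Hochberg adjusted p under 0.05. The targeted gene was counted at 139 ± 12.4 CPM (SD, n = 8) in actl6a libraries and 110 ± 15.6 CPM (SD, n = 10) in control libraries, and its log2 fold change, actl6a over control, was 0.34 ± 0.0887 (SE; adjusted p = 0.0137, edgeR). For actl6a NM_173240.1 the call was lost without the filter on low counts (adjusted p = 0.0551) and with scores of 4 other tissues as covariates (adjusted p = 0.0879). A morpholino that blocks translation need not lower the transcript, so this value does not check the labels. Of 24 listed duct markers 17 had an accession, and their summed level was 4193 to 5886 CPM in actl6a libraries and 4766 to 7017 CPM in control libraries. With edgeR 0 of the 16 tested duct marker accessions passed the test and 1 had an unadjusted p under 0.05. Of all tested accessions these shares were 16.4% and 31.2%. The pronephric cadherin gene cdh17 averaged 1121 CPM in actl6a libraries and 1128 CPM in control libraries, while the duct factor gene gata3 was near 0 in both groups. Markers of other tissues were present in both groups. Actl6a replicates 1 and 2 stood apart with 792 and 1167 CPM of summed neural markers. The neural sum was 178 to 327 CPM in the other actl6a libraries and 78.7 to 216 CPM in control libraries.

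The duct fragments contained transcripts of most of the hox family. In control libraries 35 genes, with 36 accessions, averaged at least 10 CPM, and they came from every cluster and every paralog group from 1 to 13. Of these, hoxa10b, hoxa13a, hoxc1a, hoxd12a and hoxd13a averaged under 10 CPM without their highest control library, and 30 accessions had a median of at least 10 CPM. The hoxba genes hoxb5a, hoxb6a and hoxb7a were steady from library to library, whereas most genes of paralog groups 11 to 13 ranged widely within both groups. No hox accession passed the test between actl6a and control libraries, in a comparison where 16.4% of all tested accessions did. The estimates were small and narrow for the steady genes. They were positive and wide for most of the genes at the posterior end of the clusters.

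**Figure D1:**
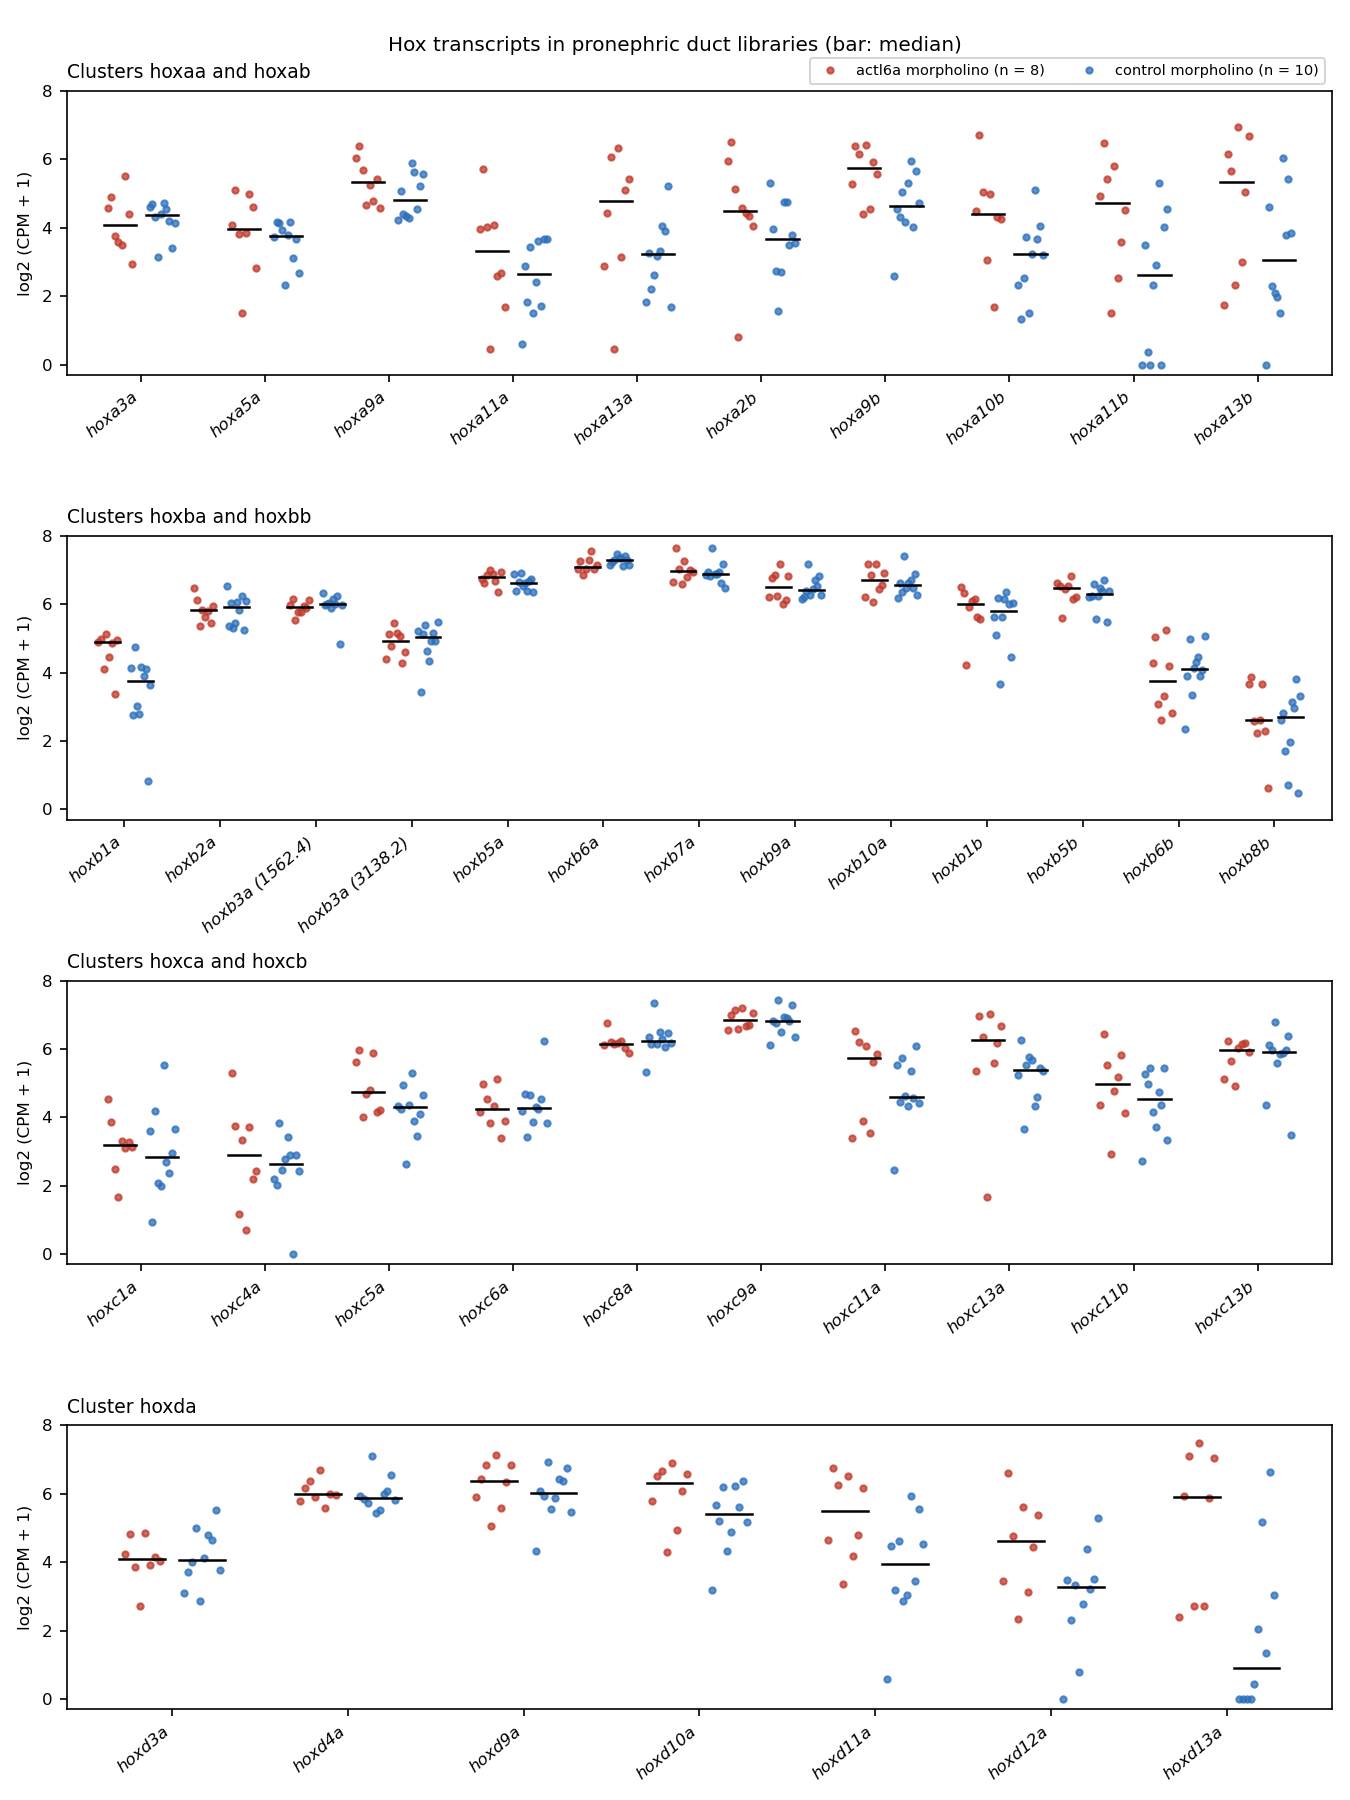
The level of every tested hox accession in every library, as log2 of CPM plus 1, with actl6a libraries to the left of control libraries and a bar at the median. Genes of the hoxba cluster such as hoxb6a and hoxb7a form tight columns, and hoxd13a spreads from 4.31 to 180 CPM in actl6a libraries and from 0 to 99.4 CPM in control libraries. The digits after the hoxb3a labels are the last digits of their accessions.

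Paralog groups 1 to 4 pattern the hindbrain and the pharyngeal arches. The test, which leaves out accessions with low counts, included 11 accessions of these groups, and their log2 fold changes of actl6a over control had a median of 0.01 and ran from -0.21 to 1.11. The hoxb1a gene (NM_131115.2), which sets the identity of the fourth hindbrain segment, had the lowest p-value of the tested hox accessions in edgeR. Its lowest, median and highest levels were 9.29, 28.5 and 33.9 CPM in actl6a libraries, against 0.761, 12.6 and 25.6 CPM in control libraries. The groups overlapped, but 7 of 8 actl6a libraries lay above the control median and 5 lay above every control library. The mean was 24.8 ± 8.42 CPM (SD, n = 8) in actl6a libraries and 12 ± 7.29 CPM (SD, n = 10) in control libraries, and the log2 fold change of 1.03 ± 0.408 (SE; adjusted p = 0.0886, edgeR) missed the threshold of 0.05. DESeq2 gave hoxb1a NM_131115.2 an adjusted p of 0.0470.

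Its duplicate hoxb1b, an early retinoic acid target of the hindbrain, averaged 59.9 ± 22.7 CPM in actl6a libraries and 51.3 ± 23.1 CPM in control libraries. The second-arch gene hoxa2b averaged 33.0 ± 28.7 CPM in actl6a libraries and 15.3 ± 11.5 CPM in control libraries, with an adjusted p of 0.191 (edgeR). The hoxb2a gene, also of the hindbrain, averaged 57.2 ± 15.3 CPM in actl6a libraries and 57.8 ± 18.3 CPM in control libraries. For hoxb1b and hoxb2a the difference of the means was smaller than the SD within either group. The most abundant of the 8 hoxb3a accessions averaged 58.9 ± 7.88 CPM in actl6a libraries and 62.4 ± 14 CPM in control libraries, and its log2 fold change was -0.08, with a 95% confidence interval (CI) of -0.39 to 0.23. A further hoxb3a accession averaged 29.0 CPM in actl6a libraries and 30.1 CPM in control libraries. The other 6 each averaged under 5 CPM in both groups and had too few counts for the test. The hoxd4a gene averaged 67.6 ± 17.6 CPM in actl6a libraries and 67.1 ± 27.8 CPM in control libraries. The others of these groups that reached 10 CPM in control libraries were hoxa3a, hoxd3a and hoxc1a, with means of 9.46 to 19.7 CPM in actl6a libraries and 10.9 to 19.8 CPM in control libraries. The hoxc4a gene averaged 10.3 ± 12.3 CPM in actl6a libraries and 5.73 ± 3.66 CPM in control libraries.

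Counts of some hox genes may hold reads of a neighbour or lack reads shared with it. In the annotation of a later assembly (GRCz12tu, used for names and order alone), the span of hoxa3a overlaps hoxa4a and hoxa5a, and that of hoxb3a overlaps hoxb4a, hoxb5a and hoxb6a. The span of hoxb1b overlaps hoxb5b and hoxb6b, and that of hoxd3a overlaps hoxd4a. The span of hoxc3a, which was matched to no accession here, overlaps hoxc4a, hoxc5a, hoxc6a, hoxc8a and hoxc9a. How counting treated reads shared by overlapping genes, and whether it used the strand, is not given in the sources used here. The values of these genes are therefore less certain than those of the rest.

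Paralog groups 5 to 8, which pattern the anterior trunk, held the steadiest members over control libraries. The hoxb6a gene (NM_131119.1) had lowest, median and highest levels of 114, 135 and 187 CPM in actl6a libraries, against 137, 155 and 178 CPM in control libraries. Its coefficient of variation over control libraries was 8.58%. The groups overlapped. Of the actl6a libraries, 1 exceeded every control library and 4 lay below every control library. The actl6a mean was 142 ± 22.5 CPM (SD, n = 8), the control mean was 155 ± 13.3 CPM (SD, n = 10), and the log2 fold change was -0.13 ± 0.0867 (SE; 95% CI -0.31 to 0.06; adjusted p = 0.346, edgeR). Neighbouring hoxb5a averaged 108 ± 15.1 CPM in actl6a libraries and 97.6 ± 13.6 CPM in control libraries, with a 95% CI of the log2 fold change of -0.05 to 0.36. Neighbouring hoxb7a averaged 129 ± 33.0 CPM in actl6a libraries and 123 ± 30.5 CPM in control libraries, with a 95% CI of -0.25 to 0.38.

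The hoxb5b gene (NM_131537.3), which has a part in limiting the heart field, had lowest, median and highest levels of 47.8, 88.4 and 112 CPM in actl6a libraries, against 43.4, 78.4 and 104 CPM in control libraries. The ranges nearly coincided, and the log2 fold change was 0.13 ± 0.169 (SE; adjusted p = 0.653, edgeR). In the hoxca cluster, hoxc8a averaged 73.4 ± 15 CPM in actl6a libraries and 81.2 ± 31.2 CPM in control libraries. The hoxc6a gene, a marker of the anterior trunk, averaged 19.97 ± 8.61 CPM in actl6a libraries and 23.5 ± 18.2 CPM in control libraries. The hoxc5a gene averaged 33.6 ± 19.3 CPM in actl6a libraries and 19.4 ± 9.52 CPM in control libraries, with a log2 fold change of 0.79 ± 0.352 (SE; adjusted p = 0.130, edgeR). Of the remaining members, hoxa5a and hoxb6b averaged 16.5 to 17.1 CPM in actl6a libraries and 11.9 to 17.7 CPM in control libraries, and hoxb8b averaged 6.92 CPM in actl6a libraries and 5.38 CPM in control libraries. Over the 10 tested accessions of groups 5 to 8 the log2 fold changes ran from -0.23 to 0.79 with a median of 0.10.

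Paralog groups 9 and 10 pattern the posterior trunk and the paired fins. All 8 of their tested accessions had positive log2 fold changes, beside 51% of all tested accessions. The values ran from 0.04 to 1.51 with a median of 0.36. None passed the test. The hoxc9a gene (NM_131528.3) had lowest, median and highest levels of 92.6, 115 and 145 CPM in actl6a libraries, against 68.9, 113 and 172 CPM in control libraries. The actl6a range lay inside the control range, and the log2 fold change was 0.04 ± 0.154 (SE; 95% CI -0.28 to 0.36; adjusted p = 0.902, edgeR). The hoxb9a gene averaged 94.7 ± 28.9 CPM in actl6a libraries and 91.4 ± 22.5 CPM in control libraries, and hoxb10a averaged 105 ± 29.7 CPM in actl6a libraries and 99.0 ± 27.8 CPM in control libraries.

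Members of the hoxa and hoxd clusters in these groups varied more. The hoxa9a gene (NM_131532.2) had lowest, median and highest levels of 22.7, 39.7 and 83.1 CPM in actl6a libraries, against 17.7, 27.7 and 58.9 CPM in control libraries. Its log2 fold change was 0.44 ± 0.300 (SE; adjusted p = 0.332, edgeR). Its duplicate hoxa9b (XM_005157968.4) had 20.3, 53.4 and 85.1 CPM in actl6a libraries, against 5.07, 23.9 and 61.1 CPM in control libraries. Both pairs of ranges overlapped, and for hoxa9b 6 of 8 actl6a libraries lay above the control median, with a log2 fold change of 0.89 ± 0.372 (SE; adjusted p = 0.106, edgeR). The hoxd9a gene (NM_131126.3), expressed in the paired fin buds, had 32.4, 82.2 and 139 CPM in actl6a libraries, against 19.2, 63.6 and 120 CPM in control libraries. Its groups overlapped over most of their range, with a log2 fold change of 0.28 ± 0.296 (SE; adjusted p = 0.560, edgeR). The hoxd10a gene averaged 71.8 ± 35.3 CPM in actl6a libraries and 45.3 ± 24.5 CPM in control libraries, with 4 of 8 actl6a libraries above every control library and an adjusted p of 0.241 (edgeR).

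The hoxa10b gene (XM_005157954.4) had the second lowest p-value of the tested hox accessions in edgeR. Actl6a replicates 1 to 8 had 21.6, 103, 32.3, 7.37, 30.7, 2.24, 18.9 and 18.3 CPM, against 4.05, 1.53, 4.78, 12.4, 1.84, 8.42, 33.4, 11.8, 15.6 and 8.26 CPM in control replicates 1 to 10. Replicate 2 stood far above the other actl6a libraries and was the only one above every control library. The actl6a mean was 29.3 ± 31.4 CPM (SD, n = 8), the control mean was 10.2 ± 9.40 CPM (SD, n = 10), and the log2 fold change was 1.51 ± 0.601 (SE; adjusted p = 0.0906, edgeR). For hoxa10b XM_005157954.4 it was 0.86 without actl6a replicate 2 (adjusted p = 0.326) and 0.16 with scores of 4 other tissues as covariates. It was 1.71 without actl6a replicate 6 (adjusted p = 0.0454) and 1.95 without control replicate 7 (adjusted p = 0.0343), and DESeq2 gave an adjusted p of 0.0430.

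Paralog groups 11 to 13 are known for the tail, the cloacal region and the distal fin. They gave the widest spread and the largest estimates. Over the 11 tested accessions the median of the log2 fold changes was 1.36. Of these, 10 were positive, beside 51% of all tested accessions, but none passed the test. Several of these accessions were high or low in the same libraries, so they are not separate results. More cells with these transcripts and more RNA in each cell cannot be told apart in such libraries.

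The hoxd13a gene (NM_131169.3), a gene of the distal fin and the tail, was the extreme case. Actl6a replicates 1 to 8 had 4.31, 59.7, 136, 5.53, 180, 5.59, 57.3 and 131 CPM, against 0, 0, 0, 0, 0.369, 3.12, 35.4, 1.52, 99.4 and 7.31 CPM in control replicates 1 to 10. All 8 actl6a libraries lay above the control median of 0.944 CPM and 3 lay above every control library, while control replicates 7, 9 and 10 each lay above actl6a replicates 1, 4 and 6. The upper limit at 0 counts, taken as 3 counts, was 0.838 to 1.95 CPM over the 18 libraries and covers counting error only. The mean was 72.4 ± 68.6 CPM (SD, n = 8) in actl6a libraries and 14.7 ± 31.7 CPM (SD, n = 10) in control libraries. With at least 13 counts in every actl6a library and a control median of 2.5 counts, hoxd13a entered the test through its actl6a libraries. The log2 fold change of 2.28 ± 1.07 (SE) had a 95% CI of 0.06 to 4.50 (adjusted p = 0.150, edgeR). It was the largest estimate of the tested hox accessions and had the largest SE. For hoxd13a NM_131169.3 it ran from 1.92 to 3.70 over fits without 1 library, with the highest value without control replicate 9 (adjusted p = 0.0218, edgeR). It was 1.56 with the tissue scores (adjusted p = 0.492) and 3.90 with limma-voom (adjusted p = 0.121).

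The hoxa13a gene (NM_001085494.1), also of the distal fin, had 6.30, 20.6, 66.2, 0.369, 79.3, 7.82, 33.6 and 42.1 CPM in actl6a replicates 1 to 8, against 2.53, 8.57, 3.66, 5.20, 8.11, 9.04, 15.7, 14.1, 36.5 and 2.22 CPM in control replicates 1 to 10. Actl6a replicates 1, 4 and 6, also the lowest for hoxd13a, lay within or below the control range. Replicates 2 and 7 lay within it too, and replicates 3, 5 and 8 lay above it. The log2 fold change was 1.58 ± 0.652 (SE; adjusted p = 0.103, edgeR). For hoxa13a NM_001085494.1 it was 1.76 without actl6a replicate 4 (adjusted p = 0.0410, edgeR) and 2.04 without control replicate 9 (adjusted p = 0.0379, edgeR). Over all fits without 1 library it ran from 1.23 to 2.04, and with scores of 4 other tissues as covariates it was -0.18. Its duplicate hoxa13b had lowest, median and highest levels of 2.32, 40.6 and 122 CPM in actl6a libraries, against 0, 8.43 and 64.6 CPM in control libraries. Replicates 5 and 8 were the highest of the actl6a libraries. Replicates 7 and 9 were the highest of the control libraries, as they were for hoxd13a. The log2 fold change was 1.5 ± 0.805 (SE; adjusted p = 0.212, edgeR).

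**Figure D2:**
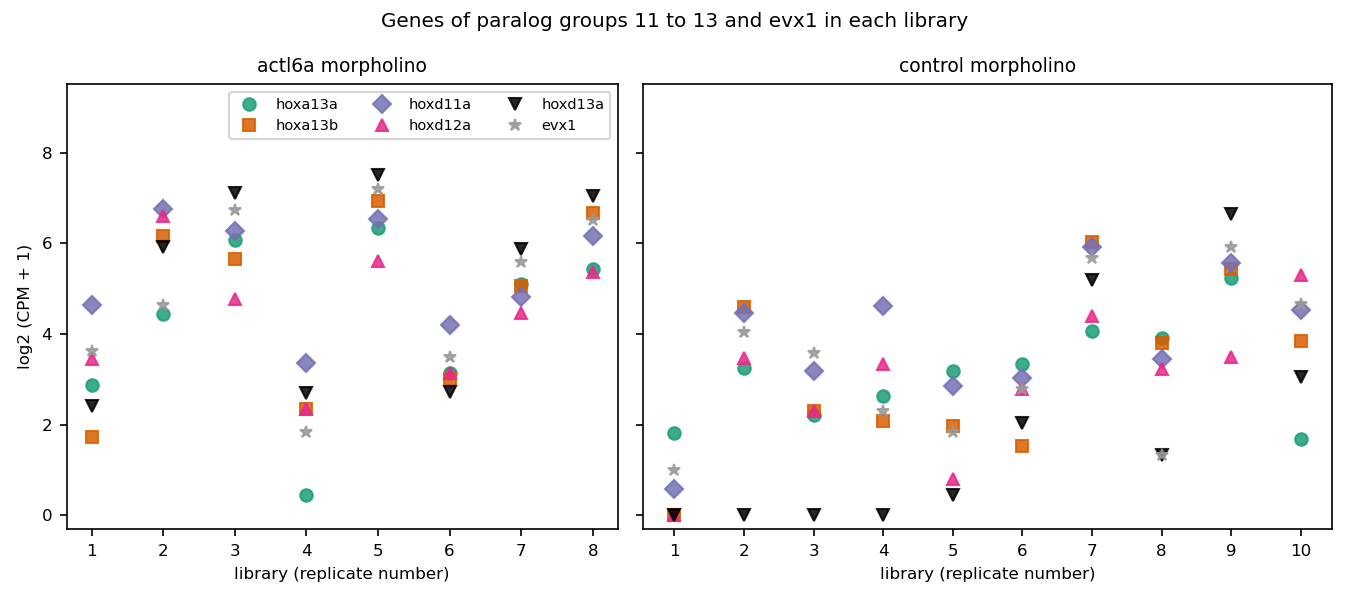
Levels of hoxa13a, hoxa13b, hoxd11a, hoxd12a, hoxd13a and evx1, the neighbour of hoxa13a, as log2 of CPM plus 1, in each library. Actl6a libraries are in the left panel and control libraries in the right panel. Actl6a replicates 1, 4 and 6 are the 3 lowest actl6a libraries for all 6 genes, and hoxd13a lies at 0 in control replicates 1 to 4.

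Among the hoxd genes next to hoxd13a, hoxd11a (NM_131167.1) had 23.9, 107, 75.9, 9.22, 91.5, 17.3, 27.0 and 70.9 CPM in actl6a replicates 1 to 8, against 0.507, 21.1, 8.16, 23.4, 6.27, 7.17, 59.8, 9.88, 46.1 and 22.2 CPM in control replicates 1 to 10. All but 1 of the actl6a libraries lay above the control median, and the log2 fold change was 1.36 ± 0.579 (SE; adjusted p = 0.115, edgeR). The hoxd12a gene (NM_001126486.1) had lowest, median and highest levels of 4.06, 23.7 and 96.0 CPM in actl6a libraries, against 0, 8.73 and 38.1 CPM in control libraries. The groups overlapped, and the log2 fold change was 1.55 ± 0.670 (SE; adjusted p = 0.118, edgeR). For hoxd12a NM_001126486.1 it ran from 1.06 to 2.04 over fits without 1 library, with the highest value without control replicate 10 (adjusted p = 0.0432, edgeR), and was 0.21 with the tissue scores. Its other accession had at most 1.61 CPM in any library.

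The hoxa11a and hoxa11b genes, of the paralog group that the mouse kidney needs, averaged 13.7 ± 16.3 and 31.9 ± 29.4 CPM in actl6a libraries (SD, n = 8). The same genes averaged 6.25 ± 4.52 and 9.73 ± 12.6 CPM in control libraries (SD, n = 10), and hoxa11b had no count in 3 of them. The hoxc11a gene averaged 46.2 ± 31.3 CPM in actl6a libraries and 31.5 ± 18.8 CPM in control libraries, and hoxc11b averaged 36.5 ± 25.7 CPM in actl6a libraries and 24.3 ± 13.7 CPM in control libraries. Adjusted p-values of these 4 genes ran from 0.188 to 0.449 (edgeR).

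Both hoxc13 copies were expressed. The hoxc13b gene (NM_131546.2) had lowest, median and highest levels of 29.5, 61.6 and 74.6 CPM in actl6a libraries, against 10.2, 59.3 and 109 CPM in control libraries. The actl6a range lay inside the control range, and its log2 fold change was -0.02 ± 0.317 (SE; adjusted p = 0.970, edgeR). The hoxc13a gene had 2.21, 75.4 and 128 CPM in actl6a libraries, against 11.5, 41.0 and 75.6 CPM in control libraries. Actl6a replicate 4 was the lowest of all 18 libraries for hoxc13a, and 4 actl6a libraries lay above every control library. Its log2 fold change was 0.89 ± 0.441 (SE; adjusted p = 0.176, edgeR), and 0.73 to 1.08 over fits without 1 library. For hoxc13a NM_131543.1 the highest value was without actl6a replicate 4 (adjusted p = 0.0259, edgeR), and with the tissue scores it was 0.29. The difference between the copies was not tested.

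A further 7 hox genes had no accession with enough counts in enough libraries for the test. For hoxc12a the actl6a replicates 1 to 8 had 1, 85, 20, 0, 23, 1, 44 and 10 counts, against 0, 6, 0, 1, 2, 14, 3, 0, 16 and 5 counts in control replicates 1 to 10. For hoxc12b the counts were 9, 65, 12, 5, 0, 9, 14 and 7 in actl6a libraries and from 0 to 9 in control libraries. In both genes actl6a replicate 2 had the most counts. DESeq2 called both, and its lowest adjusted p of a hox accession was 0.00572. The tail gene hoxb13a had 69 counts in actl6a replicate 2 and 3 in replicate 1, against 3 counts in control replicate 9, and none in the other libraries. The anterior genes hoxa1a, hoxa4a and hoxb4a and the trunk gene hoxb8a averaged at most 2.003 CPM in actl6a libraries and at most 4.53 CPM in control libraries. Of these, hoxa1a had no count in any actl6a library and a count in 1 control library. The spans of hoxa4a and hoxb4a overlap those of hoxa3a and hoxb3a, so their low counts are less certain.

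Over the 40 tested accessions of 39 genes, 30 had a positive log2 fold change and 10 a negative one, beside 7375 positive among all 14462 tested accessions (51%). The median was 0.32, beside 0.01 over all tested accessions. These figures leave out the genes that failed the filter, so they support no statement on the family. The filter asks for enough counts in as many libraries as the smaller group holds, whichever group those libraries are in. Marker lists of other tissues also had positive medians, from 0.17 (tailbud and paraxial mesoderm) to 2.56 (yolk and liver). The hox median was 0.20 without actl6a replicate 2. It was 0.07 without actl6a replicates 1 and 2, the libraries with the most neural markers, in a setting added after the data had been seen.

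With edgeR none of the 40 was called at an adjusted p of 0.05, although 2375 of 14462 accessions, or 16.4%, were. At an unadjusted p of 0.05 there were 8 of 40, beside 31.2% of all tested accessions. All 8 had positive values, and they were hoxb1a, hoxa10b, hoxa13a, hoxa9b, hoxd11a, hoxd12a, hoxc5a and hoxd13a, a set named after its values were seen. Of all tested accessions 2272, or 15.7%, had an unadjusted p under 0.05 with a positive value (edgeR). In fits without 1 library from 0 to 3 hox accessions were called, and none in 13 of 18 such fits. limma-voom with sample weights also called none, beside 17.3% of all accessions. DESeq2 called hoxb1a, hoxa10b, hoxc12a and hoxc12b, all with positive values, beside 15.7% of all accessions it tested. No tested hox accession had all actl6a libraries above or below all control libraries, beside 1.77% of all tested accessions.

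**Figure D3:**
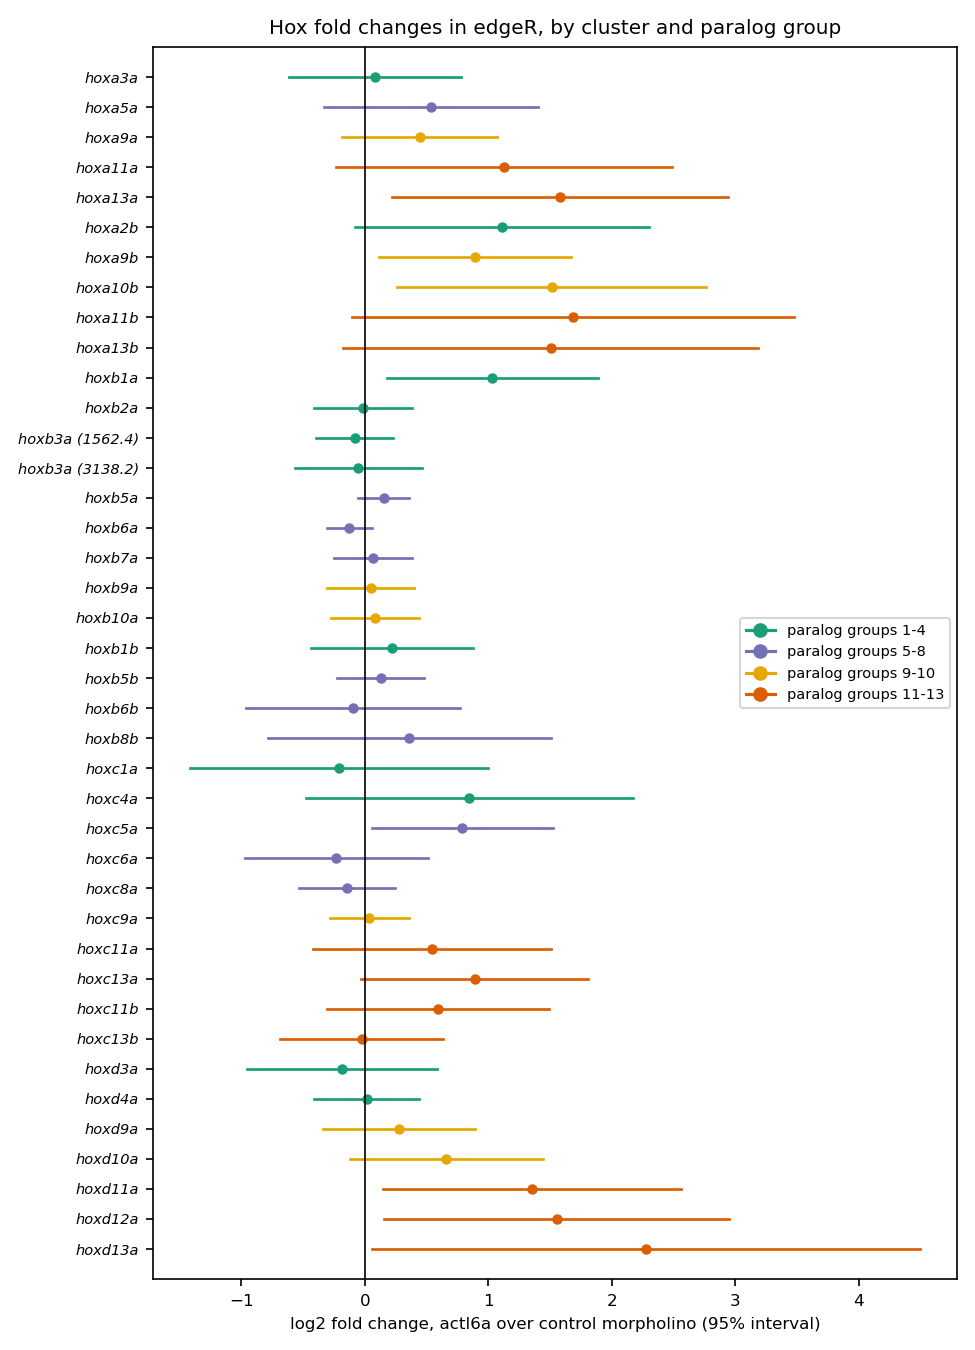
The log2 fold change of actl6a over control with its 95% confidence interval for each tested hox accession, ordered by cluster and coloured by class of paralog groups. Intervals of hoxb5a, hoxb6a and hoxb7a are narrow and cross 0, while that of hoxd13a reaches 0.06 to 4.50.

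The precision differed between members. The median SE of the hox log2 fold changes was 0.370, beside 0.269 over all tested accessions. For 10 hox accessions the SE was under 0.2. Their log2 fold changes lay between -0.14 and 0.15, and their 95% confidence intervals reached no further than -0.53 and 0.48. The interval of hoxd13a, by contrast, reached from 0.06 to 4.50, and those of hoxa11b and hoxa13b from -0.11 to 3.47 and from -0.17 to 3.18.

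The spread over libraries was widest at the posterior end of the clusters in both groups. The coefficient of variation of accessions of paralog groups 11 to 13 had a median of 90.6% in actl6a libraries and 93.0% in control libraries. For groups 9 and 10 it was 45.8% in actl6a libraries and 45.3% in control libraries. For groups 5 to 8 it was 34.4% in actl6a libraries and 39.3% in control libraries, and for groups 1 to 4 it was 37.9% in actl6a libraries and 45.0% in control libraries. By cluster, hoxba was the steadiest of those with more than 4 tested accessions, with medians of 26.7% in actl6a libraries and 24.8% in control libraries. These are descriptions, and genes of low level also vary more through counting error.

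**Figure D4:**
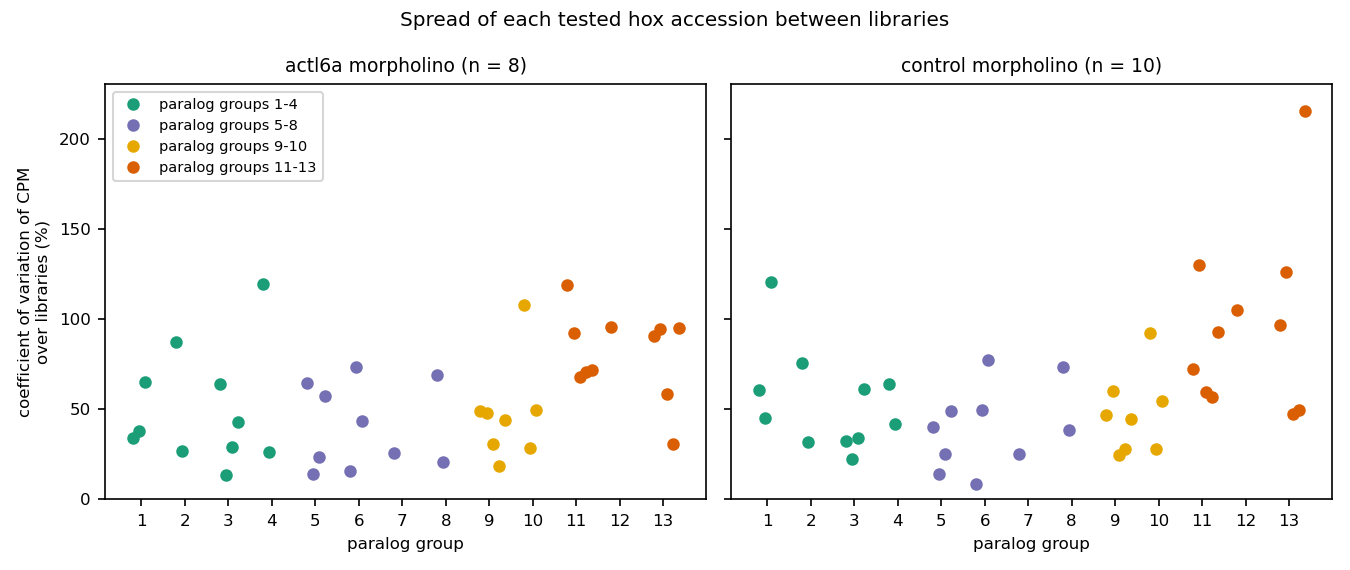
The coefficient of variation of CPM over libraries, in percent, for each tested hox accession by paralog group, with actl6a libraries in the left panel and control libraries in the right panel. Genes of groups 11 to 13 lie higher, with medians of 90.6% in actl6a libraries and 93.0% in control libraries, than genes of groups 5 to 8, with medians of 34.4% in actl6a libraries and 39.3% in control libraries.

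Summed over the family, hox counts were 0.203 ± 0.0522% of a library in actl6a libraries (SD, n = 8) and 0.173 ± 0.0325% in control libraries (SD, n = 10). The sum was 2141 ± 597 CPM in actl6a libraries, from 1314 to 3145, and 1712 ± 303 CPM in control libraries, from 1308 to 2158. The groups overlapped. Groups 1 to 4 summed to 396 ± 90.8 CPM in actl6a libraries and 365 ± 59.1 CPM in control libraries. Groups 5 to 8 summed to 631 ± 106 CPM in actl6a libraries and 612 ± 63 CPM in control libraries. Groups 9 and 10 summed to 598 ± 195 CPM in actl6a libraries and 489 ± 150 CPM in control libraries.

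Groups 11 to 13 summed to 198, 958, 673, 79.6, 891, 220, 451 and 651 CPM in actl6a replicates 1 to 8. In control replicates 1 to 10 they summed to 71.4, 309, 148, 301, 168, 182, 390, 177, 506 and 200 CPM. Replicates 2, 3, 5 and 8 of the actl6a group lay above every control library, while actl6a replicate 4 lay below all control libraries but 1. As a share of all hox counts these groups took 22.0 ± 10.4% in actl6a libraries (SD, n = 8) and 13.7 ± 5.43% in control libraries (SD, n = 10). The whole hoxca cluster took 18.4 ± 0.83% in actl6a libraries and 19 ± 3.03% in control libraries.

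**Figure D5:**
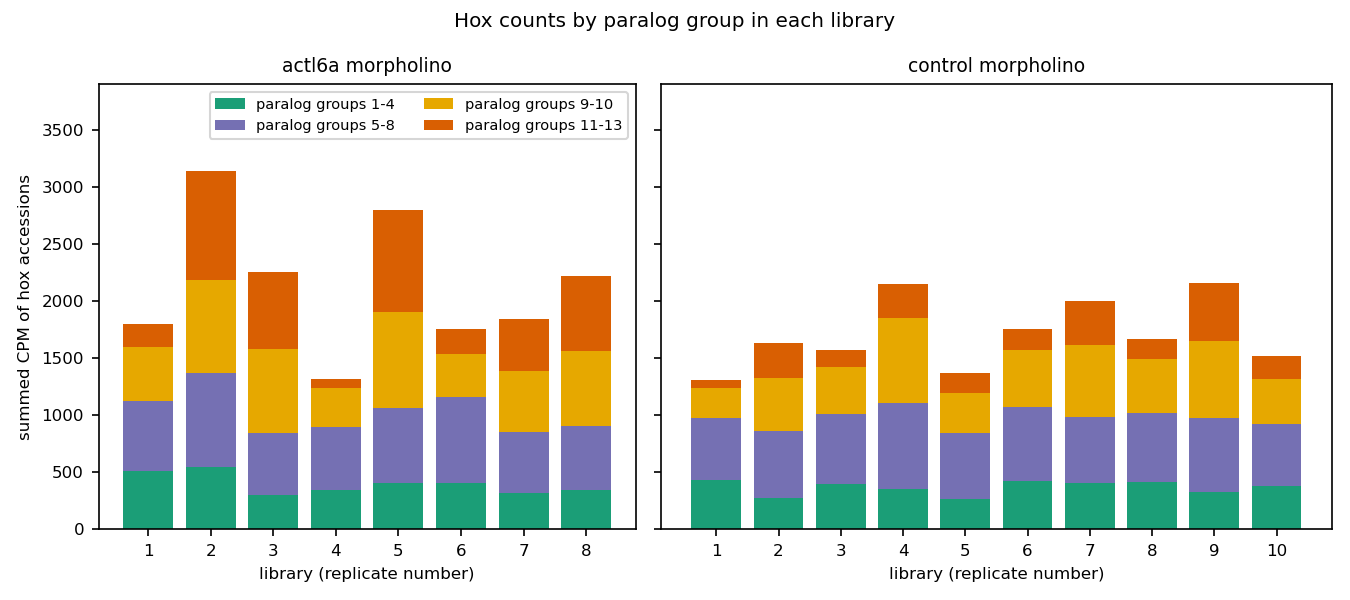
Summed CPM of hox accessions in each library, stacked by class of paralog groups, with actl6a libraries in the left panel and control libraries in the right panel. The part of groups 11 to 13 reaches from 79.6 to 958 CPM in actl6a libraries and from 71.4 to 506 CPM in control libraries, and the parts of groups 1 to 8 differ less between libraries.

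Markers of other tissues also varied between libraries. Summed epidermis markers were 1170 to 6719 CPM in actl6a libraries and 1290 to 2940 CPM in control libraries. Of 14 tested epidermis accessions 3 were called higher in actl6a libraries and 9 had an unadjusted p under 0.05 (edgeR). The highest sums, 5199, 5300 and 6719 CPM, were in actl6a replicates 3, 5 and 8, the libraries with the most hoxd13a. Actl6a replicate 2, with the highest hox sum of groups 11 to 13 (958 CPM), had 2041 CPM of epidermis markers. Actl6a replicate 1, with 198 CPM of these hox groups, had 2514 CPM of epidermis markers. Neural markers had 4 of 13 tested accessions called higher and 8 at an unadjusted p under 0.05 (edgeR). Among the 4 called, sox3, a neural progenitor factor, was at 47.4 ± 36.9 CPM in actl6a libraries and 4.13 ± 4.83 CPM in control libraries. Pectoral fin bud markers summed to 161 to 1474 CPM in actl6a libraries and 39.7 to 1059 CPM in control libraries, with 0 of 6 accessions called and 3 at an unadjusted p under 0.05 (edgeR). This list holds the actin gene actc1a, so its sum need not mark the fin bud alone. Fin bud and skeletal muscle sums were both highest in actl6a replicate 1 and lowest in control replicate 4, and their relation was not tested. Hindgut and cloaca markers summed to 213 to 589 CPM in actl6a libraries and 140 to 473 CPM in control libraries, with 0 of 5 called and 1 at an unadjusted p under 0.05. Tailbud and paraxial mesoderm markers summed to 122 to 220 CPM in actl6a libraries and 67.6 to 211 CPM in control libraries, with tbx18 called of 5 tested. Skeletal muscle markers summed to 678 to 14070 CPM in actl6a libraries and 192 to 10845 CPM in control libraries. Blood markers summed to 208 to 4045 CPM in actl6a libraries and 84.7 to 1588 CPM in control libraries. With edgeR 0 of 15 tested muscle accessions and 0 of 12 tested blood accessions were called. At an unadjusted p under 0.05 there were 0 muscle accessions and 1 blood accession. Notochord markers summed to 40.2 to 258 CPM in actl6a libraries and 6.12 to 137 CPM in control libraries. Yolk and liver markers, with 6 of 7 accessions higher, summed to 343 to 536 CPM in actl6a libraries and 5.20 to 251 CPM in control libraries. Of all tested accessions 7.9% were called higher, and 31.2% had an unadjusted p under 0.05 in either direction (edgeR). Medians of the log2 fold changes were 1.31 for neural, 1.17 for epidermis, 1.19 for blood and 0.36 for skeletal muscle accessions. They were 1.16 for fin bud, 1.51 for notochord, 2.56 for yolk and liver and 0.60 for hindgut and cloaca. For tailbud and paraxial mesoderm the median was 0.17, and for duct markers -0.07, beside 0.01 over all tested accessions. Positive values were 12 of 13 neural, 14 of 14 epidermis, 11 of 12 blood, 14 of 15 muscle and 5 of 16 duct accessions. With the neural, skeletal muscle, blood and epidermis scores as covariates, the median hox log2 fold change was -0.038, with 15 of the 40 estimates of opposite sign and none called. No fit or correlation used the fin bud, hindgut and cloaca, tailbud, notochord or yolk and liver markers, and their part in the hox values was not tested.

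Of 10 correlations within groups, none passed Benjamini-Hochberg adjustment over the 10, with the lowest adjusted permutation p at 0.276 for Pearson's r and 0.313 for Spearman's rho. The duct score and the summed hox level had r = -0.62 and rho = -0.67 over the 10 control libraries (permutation p = 0.0552 and 0.0383), with r = -0.52 without the 2 farthest. Over the 8 actl6a libraries they had r = -0.51 and rho = -0.26 (exact permutation p = 0.198 and 0.536), with r = -0.43 without the 2 farthest. The neural score and the summed hox level had r = 0.28 over actl6a libraries and r = -0.05 over control libraries. Without the 2 farthest libraries these became -0.45 and 0.75. For the skeletal muscle score r was -0.16 over actl6a libraries and -0.52 over control libraries. Without the 2 farthest libraries these became -0.72 and -0.56. The pair of epidermis score and hoxd13a was chosen after the match of libraries above had been seen, so its values describe that match and give no test of it. It had r = 0.78 and rho = 0.69 over the 8 actl6a libraries, with r = 0.52 without the 2 libraries farthest from the median score. Over the 10 control libraries it had r = 0.52 and rho = 0.56, with r = 0.14 without the 2 farthest. Leaving out the farthest scores narrows their range, which can itself lower r.

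The genes that act with or on hox genes were read from the same fit. Hox proteins bind DNA with TALE-class partners of the Pbx and Meis families. Of 15 listed partners 4 were tested, and with edgeR 0 were called and 3 had an unadjusted p under 0.05, beside 16.4% and 31.2% of all tested accessions, and DESeq2 and limma-voom called 1 each. The meis1b gene averaged 86.3 ± 13.1 CPM in actl6a libraries and 55.1 ± 27.9 CPM in control libraries, with an adjusted p of 0.0697 (edgeR). The meis3 gene, a hindbrain partner, averaged 6.21 ± 5.10 CPM in actl6a libraries and 20.2 ± 28.5 CPM in control libraries. The pbx4 gene, the main early Pbx gene of zebrafish, averaged 68.8 ± 8.04 CPM in actl6a libraries and 81.7 ± 15.5 CPM in control libraries.

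Upstream regulators of hox expression include Cdx factors, retinoic acid enzymes and receptors, and trithorax-group methyltransferases. Of 30 listed genes 18 were tested, with 21 accessions, and 1 was higher and 0 were lower, beside 7.9% and 8.52% of all tested accessions. The median log2 fold change was 0.18. The accession called higher was 1 of 2 tested for gdf11, a secreted factor that in the mouse shifts hox expression at the trunk to tail transition. The accession gdf11 NM_212975.1 had lowest, median and highest levels of 1.11, 8.40 and 29.8 CPM in actl6a libraries, against 0, 1.03 and 4.99 CPM in control libraries. That control median lay within the range of the floor of 3 counts, 0.838 to 1.95 CPM. All but 2 of the actl6a libraries lay above every control library, with a log2 fold change of 2.54 ± 0.678 (SE; adjusted p = 0.0158, edgeR), and with its accessions summed the adjusted p was 0.0954. In the fits without control replicate 6 or 10 it fell short of the filter on low counts. Without actl6a replicates 1 and 2 the adjusted p was 0.0746, and with the 4 tissue scores 0.235. The other tested gdf11 accession was not called, with 0.419 to 8.07 CPM in actl6a libraries and 0 to 8.38 CPM in control libraries. The cdx4 gene, a caudal factor that sets posterior hox domains, averaged 63.1 ± 41.8 CPM in actl6a libraries and 35.8 ± 16.8 CPM in control libraries, with an adjusted p of 0.0924 (edgeR).

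Genes beside the clusters were taken from a list of 22, of which 11 were tested, 8 of them within 7 coding genes of a hox gene in the annotation. Among the 11, 3 were lower in actl6a libraries and 0 were higher, with a median log2 fold change of -0.13. Over all tested accessions 8.52% were called lower and 7.9% higher, and the median was 0.01. Of the 8 near a hox gene, 2 were among the 3. The copz2 gene, which encodes a coatomer subunit, had lowest, median and highest levels of 5.76, 21.9 and 38.6 CPM in actl6a libraries, against 34.6, 51.1 and 61.0 CPM in control libraries. All but 1 of the actl6a libraries lay below every control library, and copz2 fell by 1.24 ± 0.242 (SE) on the log2 scale (adjusted p = 0.00228, edgeR). The calcoco1a gene averaged 38.9 ± 8.35 CPM in actl6a libraries and 65.1 ± 17.6 CPM in control libraries and fell by 0.74 ± 0.167 (SE) on the log2 scale (adjusted p = 0.00574, edgeR). The mtx2 gene, which encodes a mitochondrial outer membrane protein and does not lie on a hox chromosome in the annotation used here, averaged 198 ± 14.9 CPM in actl6a libraries and 244 ± 31.4 CPM in control libraries and fell by 0.30 ± 0.0818 (SE) on the log2 scale (adjusted p = 0.0167, edgeR). With the 4 tissue scores as covariates none of these 3 genes was called, and mtx2 NM_212575.2 was also not called without actl6a replicates 1 and 2 (adjusted p = 0.0527).

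The evx1 gene, a homeobox gene next to hoxa13a and active in the tail, had 11.3, 23.8, 105, 2.58, 145, 10.3, 47.1 and 90.8 CPM in actl6a replicates 1 to 8. Control replicates 1 to 10 had 1.01, 15.6, 10.97, 3.90, 2.58, 5.92, 50.2, 1.52, 59.8 and 24.5 CPM. Within each group, the libraries with the most evx1 were actl6a replicates 3, 5 and 8 and control replicates 7 and 9, as for hoxd13a. Its log2 fold change was 1.61 ± 0.752 (SE; adjusted p = 0.150, edgeR).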

How the data were processed

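RNA sequencing libraries of pronephric duct fragments were compared, 8 of actl6a morpholino and 10 of control morpholino embryos. The deposited values are raw counts per RefSeq accession in 2 tables made by the authors. Per the submitters' processing notes, cutadapt, FastQC, STAR, featureCounts and edgeR were used with the GRCz11 build, and parameters and strand settings are not given in the sources used here. An accession listed in only 1 table was taken as 0 in the other. Of the 55 hox accessions, 39 matched a symbol with their version number and 16 without it.

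All accessions were fitted together with edgeR 4.0.16 in R 4.3.3 (filterByExpr, TMM factors, quasi-likelihood test of group, two-sided, Benjamini-Hochberg over 14462 tested accessions, threshold 0.05). The SE was derived as the size of a log2 fold change over the square root of its F statistic. DESeq2 1.42.0 and limma 3.58.1 were alternatives. Transcript lengths were not used here. The cut at 10 CPM, the choice of the highest accession in each cluster and the shares of hox counts are therefore not corrected for length. Levels of different genes were otherwise not compared. Marker scores are mean log2 CPM of tested members. Full values are given for called genes, for the hox accession with the highest control level in each cluster and, chosen after their values were seen, for members with low p-values. The members and lists were chosen with earlier results of these data known. Floors of 3 counts cover counting error only, since it is not stated whether reads are independent molecules. An expressed gene has a mean of at least 10 CPM in control libraries.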

Additional observations from a re-analysis of the deposited data

Results flagged for a closer look

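In 104 groups of hox values, the highest or lowest library was set against its nearest neighbour by Dixon's criterion on log2 CPM plus 1. Chance marks about 1 in 20 such groups, and 11 were marked.

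Actl6a replicate 4 was marked as the lowest of its group for 3 genes. These were hoxa2b at 0.737 CPM, with 15.5 CPM in the next library, and hoxc13a at 2.21 CPM, with 40.1 CPM next. The other was hoxd3a at 5.53 CPM, with 13.4 CPM next. Replicate 4 was also the lowest actl6a library for hox genes that were not marked, among them hoxa11b and hoxd11a. Actl6a replicate 3 was the lowest for hoxb1b at 17.6 CPM, with 45.9 CPM next, and actl6a replicate 2 was the highest for hoxc8a at 108.1 CPM, with 74.3 CPM next.

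Control replicate 9 stood apart for 3 accessions. It was the lowest for hoxb1a at 0.761 CPM, with 5.81 CPM next, and for the main hoxb3a accession at 27.4 CPM, with 57.9 CPM next, and the highest for hoxc6a at 73.5 CPM, with 24.5 CPM next. Control replicate 8 had no hoxc4a count, so its level was 0, with 3.06 CPM next. Control replicate 1 was the lowest for hoxc11a at 4.56 CPM, with 19.0 CPM next. Control replicate 4 had the highest hoxba sum at 964.5 CPM, with 774.9 CPM next.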

How the results depend on the processing

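Limits: hox genes with enough counts in too few libraries could not be tested, at 1564673 to 3393310 counts per library. Posterior genes have wide intervals. The group coincides with table and barcodes, and the labels do not say that libraries are separate injections.

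The 0 hox accessions called became 4 with DESeq2 and 1 without the filter on low counts (hoxc12b), and 0 to 3 when 1 library was left out: 3 without actl6a replicate 4 (hoxa13a, hoxc12a, hoxc13a), 2 without actl6a replicate 6 (hoxa10b, hoxc12a), 1 without control replicate 7 (hoxa10b), 2 without control replicate 9 (hoxa13a, hoxd13a) and 1 without control replicate 10 (hoxd12a). The hox median, 0.32, was 0.20 to 0.46 over these fits and -0.038 with marker scores of 4 tissues as covariates, where 386 of all accessions were called, beside 2375. Over fits without 1 library that number was 1876 to 2417. In control libraries 23 hox accessions reached 20 CPM, beside 36 at 10 CPM. Of the partners, 1 was called without TMM factors, with DESeq2, with limma-voom and in fits without 1 library (0 to 1). The 1 upstream regulator became 0 with summed accessions, with tissue scores and without actl6a replicates 1 and 2, 2 with limma-voom, and 0 to 3 without 1 library. The 3 neighbours became 0 with tissue scores and 3 to 4 without 1 library. The cause of these moves was not tested.

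Replicate numbers did not pair the libraries: correlations of same-numbered libraries ran from -0.119 to 0.324 and 0 of 8 matched its own number best. With a replicate block, which leaves out control replicates 9 and 10, 1058 of all accessions and 1 hox accession (hoxd13a, at 5.41) were called, and 0 upstream regulators. In that fit the adjusted p was 0.0707 for actl6a NM_173240.1 and 0.0824 for mtx2 NM_212575.2. Signs turned for hoxa3a (-0.19), hoxb3a XM_017353138.2 (0.057), hoxc1a (0.32), hoxc6a (0.044) and hoxd3a (0.046).

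Further signs turned, all at adjusted p over 0.05. With tissue scores these were hoxa9a (-0.50), hoxa11a (-1.43), hoxa13a (-0.18), hoxa9b (-0.17), hoxb3a XM_005171562.4 (0.13), hoxb3a XM_017353138.2 (0.25), hoxb7a (-0.037), hoxb9a (-0.087), hoxb10a (-0.066), hoxc4a (-0.59), hoxc9a (-0.13), hoxc11a (-0.29), hoxc11b (-0.32), hoxd9a (-0.24), hoxd10a (-0.15), pbx4 (0.064) and evx1 (-0.22). With limma-voom they were hoxa3a (-0.097), hoxb2a (0.011), hoxb3a XM_017353138.2 (0.026), hoxc1a (0.28), hoxc13b (0.29) and hoxd3a (0.090). Without TMM factors they were hoxb7a (-0.011), hoxb9a (-0.046), hoxb10a (-0.0024), hoxc9a (-0.050) and hoxd4a (-0.071). Without actl6a replicates 1 and 2 they were hoxa3a (-0.071), hoxb7a (-0.00076), hoxb1b (-0.0014), hoxb8b (-0.091), hoxc4a (-0.11) and hoxc13b (0.0033). DESeq2 size factors turned hoxb2a (0.0059), DESeq2 turned hoxb2a (0.0047), and the fit without the filter turned hoxd4a (-0.0032). Without 1 library, ranges crossed 0 for hoxa3a (-0.21 to 0.21), hoxb2a (-0.13 to 0.083), hoxb3a XM_017353138.2 (-0.17 to 0.024), hoxb7a (-0.057 to 0.16), hoxb9a (-0.065 to 0.14), hoxb10a (-0.0059 to 0.19), hoxb6b (-0.36 to 0.046), hoxc1a (-0.52 to 0.41), hoxc6a (-0.39 to 0.16), hoxc8a (-0.25 to 0.018), hoxc9a (-0.023 to 0.12), hoxc13b (-0.16 to 0.12), hoxd3a (-0.32 to 0.036) and hoxd4a (-0.094 to 0.18).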
